A study of Mus musculus with 17 samples.

Results

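Transcript levels of 6 genes of the red cell membrane skeleton and its anchors (*Slc4a1*, *Epb42*, *Ank1*, *Sptb*, *Tmod1* and *Add2*) were followed in whole mouse embryos with mutations of *Klf3*, the gene of Krüppel-like factor 3. The genes were chosen by name, and all 6 were on the array, with 7 of its 39137 probe sets among 22180 named genes (*Ank1* has 2 probe sets). Embryos at E12.5 were profiled on 17 Affymetrix 2.0 ST arrays, with 1 array per embryo RNA sample. There were 4 wild-type (WT) arrays, 4 of embryos heterozygous for the H275R allele (H275R/+), 3 of H275R homozygotes (H275R/H275R), 2 of CH heterozygotes and 4 of CH homozygotes. H275R is a chemically induced point mutation that replaces a histidine in a zinc finger of KLF3, and the line was kept on a largely C57BL/6J background. The CH line was made from 1 gene trap embryonic stem cell clone with an insertion in intron 1 of *Klf3* and is on a mixed B6;129 background. Both are germline alleles carried by every cell, and no cell type was isolated. The sources used here do not say from which line the WT embryos came, or whether embryos of one genotype were taken from different litters. CH and H275R embryos therefore differed in line as well as in genotype, which cannot be told apart, and the p-values reflect only how far these embryos varied.

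The inner face of the red cell membrane carries a net of spectrin that gives the cell its strength and elasticity. Ankyrin ties the net to the anion exchanger band 3, the product of *Epb42* stabilises that attachment, and at the corners of the net short actin filaments are capped by tropomodulin and adducin. In mice and humans, loss of spectrin, ankyrin, band 3 or the *Epb42* product gives fragile, rounded red cells and haemolytic anaemia. At mid-gestation, red cells of the yolk sac lineage still circulate while the fetal liver begins to make definitive ones. KLF1, the erythroid member of the Krüppel-like family, activates many genes of the red cell through CACCC elements, and KLF3 binds the same class of element, mostly as a repressor.

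Sequence around the transcription start was held by the RefSeq promoter table (GRCm38.p6) for 4 of the 6 genes, namely *Epb42*, *Sptb*, *Tmod1* and *Add2*. The windows of *Epb42*, *Sptb* and *Tmod1* are shown because the first and the second had the lowest values relative to WT in H275R homozygotes while the third lay closer to WT. They span 250 bases before to 50 bases after the start, 5′ to 3′ on the strand of the gene, at chr2:121036828-121037127 (minus strand), chr12:76710498-76710797 (minus strand) and chr4:46038972-46039271 (plus strand). Capitals mark each CACCC, the core of a KLF element, and each GATAA, the core of a GATA element, on either strand, so that GGGTG and TTATC are the same elements read on the opposite strand.
Epb42: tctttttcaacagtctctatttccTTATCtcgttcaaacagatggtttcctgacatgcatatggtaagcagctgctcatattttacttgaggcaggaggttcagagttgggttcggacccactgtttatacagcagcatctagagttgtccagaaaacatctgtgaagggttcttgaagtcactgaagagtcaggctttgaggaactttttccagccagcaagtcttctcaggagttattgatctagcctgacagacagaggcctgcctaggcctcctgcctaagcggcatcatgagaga
Sptb: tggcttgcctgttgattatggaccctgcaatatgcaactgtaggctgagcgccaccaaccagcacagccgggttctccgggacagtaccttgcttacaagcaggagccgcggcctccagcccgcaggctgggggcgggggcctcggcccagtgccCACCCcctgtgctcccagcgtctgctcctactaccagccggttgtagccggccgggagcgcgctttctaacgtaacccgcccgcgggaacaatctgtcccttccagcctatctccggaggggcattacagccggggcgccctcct
Tmod1: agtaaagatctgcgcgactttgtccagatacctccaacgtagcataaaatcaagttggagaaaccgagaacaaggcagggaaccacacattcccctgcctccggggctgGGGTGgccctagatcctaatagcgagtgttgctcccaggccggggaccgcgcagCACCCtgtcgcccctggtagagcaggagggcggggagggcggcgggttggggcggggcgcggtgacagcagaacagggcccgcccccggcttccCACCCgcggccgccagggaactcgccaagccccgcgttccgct
The *Epb42* window held no CACCC and 1 GATAA, which began at position −226 on the opposite strand, with the start site counted as 1 and no position numbered 0. The *Sptb* window held 1 CACCC at −95. *Tmod1* had 3, at −141 on the opposite strand and at −87 and 8. The *Tmod1* positions count from the start used for its window, and the annotated gene begins further upstream, at position 46038940 of its chromosome. The *Add2* window (chr6:86028431-86028730, plus strand) held 1 CACCC at −131, and neither *Sptb*, *Tmod1* nor *Add2* held a GATAA. Of 32851 promoter windows of 300 bases, 57.5% held a CACCC and 25.4% a GATAA on either strand. The matches did not overlap each other. These matches are descriptions of sequence, and binding was not measured here.

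The deposited log2 values had been normalized by the robust multiarray average (RMA), which equalises the distributions of the arrays and combines the probes of a probe set into 1 value. Array medians lay between 6.68 and 6.78. Each probe set was tested with limma, with 1 mean per genotype over the 15 arrays without CH heterozygotes, or over all 17 where these entered. The spread of a probe set was estimated once from all arrays fitted and was shared by the groups. The Benjamini-Hochberg adjustment covered all 39137 probe sets, and an adjusted p under 0.1 passed. A difference of −1 in log2 is a halving, and values of different genes are not compared because probe sets differ in their response. *Klf3* itself was at 5.27 to 6.13 in CH homozygotes and at 9.09 to 9.80 in the other 13 arrays, a difference of −3.92 between CH homozygotes and WT (SE 0.14, adjusted p = 5.18e-09 in limma). The array cannot see a point mutation, so *Klf3* mRNA (9.33 to 9.65 in H275R homozygotes, 9.48 to 9.80 in WT) is no check of the H275R labels. Lists of markers of neurons (means of 9.65 to 10.01 per array) and of heart muscle (8.58 to 8.96) were measured in all 17 arrays, which are labelled whole embryo. In cartilage markers, CH homozygotes 2 and 4 and CH heterozygote 2 stood high (8.74, 8.60 and 8.50) and CH homozygotes 1 and 3, CH heterozygote 1 and WT 4 stood low (7.89, 7.86, 7.82 and 7.79), against 8.07 to 8.20 in the other 10 arrays. The same 3 arrays were the highest of all in hepatocyte markers (9.65, 9.64 and 9.73, against 8.14 to 9.04 elsewhere).

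*Slc4a1* encodes band 3, the anion exchanger that anchors the skeleton to the membrane. Its WT values were 11.55, 11.29, 11.61 and 11.68. In H275R heterozygotes they were 11.31, 11.31, 11.31 and 11.30, and in H275R homozygotes 11.13, 10.59 and 10.69. The homozygous arrays were the lowest of these 3 genotypes and overlapped neither WT nor heterozygotes, while WT 2 lay just below the heterozygotes. CH heterozygotes had 11.26 and 11.75 and CH homozygotes 10.69, 11.82, 11.23 and 11.60. CH homozygote 1 was as low as the H275R homozygotes and CH homozygote 2 was above every WT array, so that this group spread over nearly the whole range of the others.

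*Epb42* encodes a membrane protein related to the transglutaminases, which has no enzyme activity and steadies the bond between band 3 and ankyrin. WT arrays were at 8.75, 8.75, 8.93 and 8.92. H275R heterozygotes were at 8.67, 8.56, 8.38 and 8.52 and H275R homozygotes at 8.35, 7.66 and 7.60. WT, heterozygotes and homozygotes formed 3 separate ranges, with homozygotes 2 and 3 well below homozygote 1. In the CH line, heterozygotes were at 8.44 and 9.06 and homozygotes at 7.98, 9.02, 8.46 and 9.21. CH homozygotes 2 and 4 lay above all WT arrays and CH homozygotes 1 and 3 below them.

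*Ank1* encodes erythroid ankyrin, which links spectrin to band 3. Its WT values were 9.40, 9.29, 9.51 and 9.61. Those of H275R heterozygotes were 9.22, 9.27, 9.13 and 9.10 and those of H275R homozygotes 9.02, 8.72 and 8.70. As for *Epb42*, WT and the 2 H275R genotypes formed 3 separate ranges. CH heterozygotes had 9.31 and 9.63 and CH homozygotes 8.70, 9.65, 9.04 and 9.29, again from the level of H275R homozygotes to above WT. The second probe set of *Ank1* stayed between 6.66 and 7.03 in all 17 arrays, close to the array medians, and its difference between H275R homozygotes and WT was −0.050 (adjusted p = 0.999 in limma). It did not follow the first, and the values below are those of the first probe set.

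*Sptb* encodes the erythroid beta chain of spectrin. WT arrays were at 9.36, 9.25, 9.49 and 9.96, with WT 4 the highest of the 17 arrays. H275R heterozygotes were at 9.07, 9.23, 9.32 and 9.26 and H275R homozygotes at 8.93, 8.78 and 8.54. The homozygous range lay below both others, which overlapped. CH heterozygotes were at 9.60 and 9.77 and CH homozygotes at 8.71, 9.56, 9.12 and 9.26, and here all 4 CH homozygotes were below both CH heterozygotes.

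*Tmod1* encodes tropomodulin 1, which caps the pointed ends of the actin filaments in red cells and also in heart muscle. WT arrays had 8.45, 8.24, 8.52 and 8.33, H275R heterozygotes 8.26, 8.27, 8.15 and 8.27, and H275R homozygotes 8.29, 8.12 and 8.04. All 3 ranges overlapped. CH heterozygotes had 8.09 and 8.65 and CH homozygotes 7.93, 8.66, 8.07 and 8.70. The 6 CH arrays fell into a low and a high set, and the high set held the 3 arrays with the highest cartilage and hepatocyte markers.

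*Add2* encodes beta-adducin, which caps the barbed ends of actin, joins them to spectrin, and is made in brain as well as in red cells. It varied least of the 6 genes. WT arrays were at 9.73, 9.56, 9.78 and 9.81, H275R heterozygotes at 9.77, 9.86, 9.79 and 9.73, and H275R homozygotes at 9.68, 9.45 and 9.58. The homozygotes overlapped WT but not the heterozygotes. CH heterozygotes were at 9.75 and 9.80 and CH homozygotes at 9.52, 10.13, 9.68 and 9.71, with CH homozygote 2 above every other array.

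**Figure D1:**
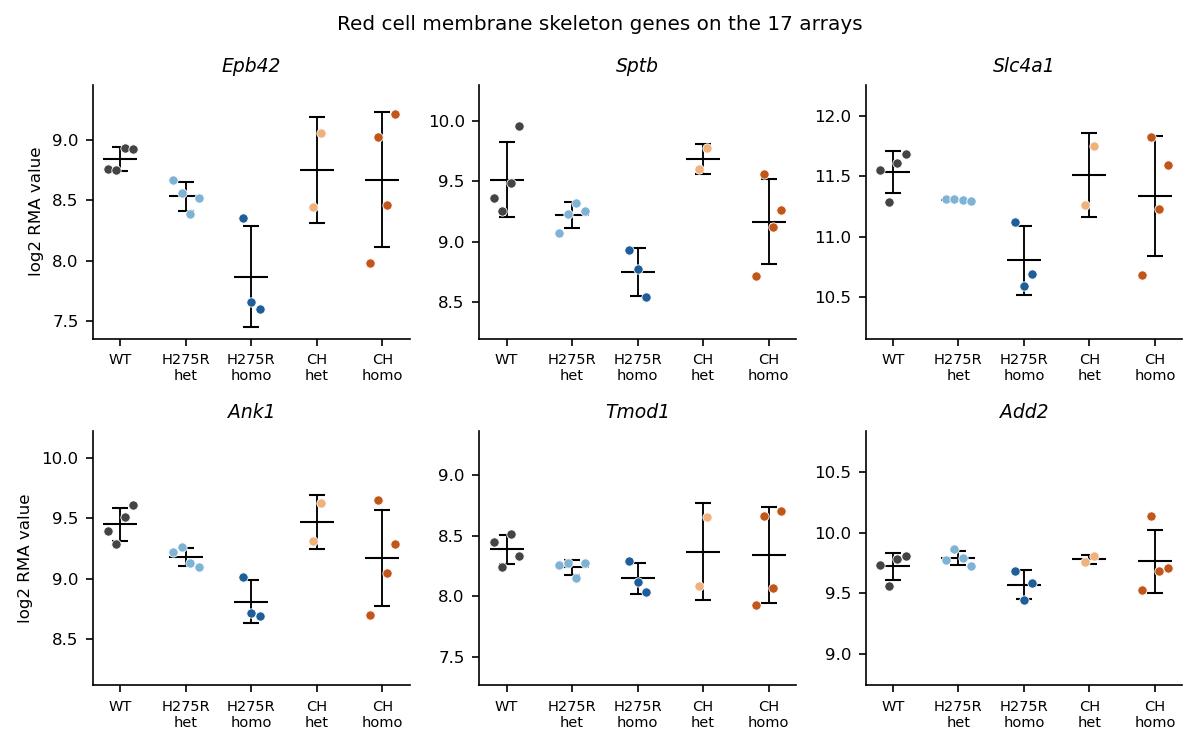
Log2 RMA value (y axis) of each of the 6 genes on every array (points) by genotype (x axis: WT, H275R heterozygotes and homozygotes, CH heterozygotes and homozygotes), with the mean (wide bar) and SD (whiskers). All panels span the same number of log2 units. The H275R homozygotes lie below all WT points for *Epb42*, *Sptb*, *Slc4a1* and *Ank1*, and the CH homozygotes have a wide spread.

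The order of group means was not the same for all genes. For *Epb42*, *Slc4a1* and *Tmod1* it ran from WT through CH heterozygotes, CH homozygotes and H275R heterozygotes down to H275R homozygotes. Between neighbours in this order the arrays were separate only for H275R heterozygotes over homozygotes, with gaps between means of 0.66 for *Epb42* and 0.50 for *Slc4a1*. For *Sptb* and *Ank1* the CH heterozygotes came first and H275R homozygotes last, and the only neighbours that did not overlap were WT and H275R heterozygotes for *Ank1* (0.27). For *Add2* the H275R heterozygotes came first, H275R homozygotes last, and all neighbours overlapped.

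The comparison of H275R homozygotes with WT asks what the mutant factor does when no normal copy is present. *Epb42*, *Sptb*, *Slc4a1* and *Ank1* had lower values in all 3 homozygotes than in any of the 4 WT embryos, and *Tmod1* and *Add2* overlapped WT. In a bulk sample of a whole embryo, fewer red cells and less RNA per red cell cannot be told apart. None of the 6 genes passed the adjusted threshold, against 5 of 39137 probe sets (0.0128%), all 5 lower. The 4 genes with separate ranges compare with 3.16% of probe sets lower without overlap. The same 4 had an unadjusted p under 0.05, as did 3.35% of probe sets in the lower direction. Of 17 other erythroid genes (a reference list described below), 11 were lower without overlap and 9 had an unadjusted p under 0.05, lower. Of 10 genes of the band 3 and Rh complexes and the red cell surface, 5 did so by each count. Of 12 erythroid regulators, 4 and 5 did. Separate lower ranges were therefore not confined to the 6 genes. All 6 differences were below 0, as were 53.5% of those of all probe sets. The median difference of the 6 genes was −0.68, against 0.0068 over all genes.

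For *Epb42* the mean was 7.87 ± 0.42 (SD, n = 3) in H275R homozygotes and 8.84 ± 0.10 (SD, n = 4) in WT. The difference of −0.97 (SE 0.24, 0.510-fold, 95% confidence interval −1.49 to −0.45) was the 50th lowest of all probe sets and did not pass (adjusted p = 0.582 in limma). The values of *Sptb* were 8.75 ± 0.20 (SD, n = 3) and 9.51 ± 0.31 (SD, n = 4), or −0.76 (SE 0.19, 0.589-fold, −1.16 to −0.36, adjusted p = 0.579 in limma). Band 3 and ankyrin followed with smaller differences. *Slc4a1* had 10.80 ± 0.28 (SD, n = 3) with the mutation and 11.53 ± 0.17 (SD, n = 4) without it, which is −0.73 (SE 0.21, 0.604-fold, −1.17 to −0.28, adjusted p = 0.734 in limma). *Ank1* had 8.81 ± 0.18 (SD, n = 3) and 9.45 ± 0.14 (SD, n = 4), which is −0.64 (SE 0.17, 0.642-fold, −0.998 to −0.28, adjusted p = 0.612 in limma). The caps of the actin filaments lay nearer to WT, with intervals that include 0. The difference was −0.24 (SE 0.16, −0.58 to 0.10, adjusted p = 0.999 in limma) for *Tmod1* and −0.15 (SE 0.12, −0.40 to 0.10, adjusted p = 0.999 in limma) for *Add2*.

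H275R heterozygotes keep 1 normal allele. The median difference of the 6 genes from WT was −0.25, and 5 of the 6 were below 0, as were 53.2% of all probe sets. *Epb42* (−0.31, SE 0.22) and *Ank1* (−0.27, SE 0.15) were lower without overlap, as were 1.55% of probe sets. The differences of *Sptb* (−0.29), *Slc4a1* (−0.23) and *Tmod1* (−0.15) came with overlapping ranges, and that of *Add2* was 0.067. None of the 6 genes and none of the probe sets (0%) passed in limma, with adjusted p = 0.9996 for each gene, and 0 of the 6 had an unadjusted p under 0.05, as did 3.87% of probe sets. The intervals reached from −0.79 to 0.17 for *Epb42* and from −0.60 to 0.061 for *Ank1*. Their spread was shared with CH homozygotes, whose SD was 0.56 for *Epb42* and 0.40 for *Ank1*. In H275R heterozygotes the SD was 0.12 and 0.076, and in WT 0.10 and 0.14. The intervals and unadjusted p-values therefore do not measure the spread of these 2 groups alone. Over all alternatives, including a fit of only these 2 groups, the adjusted p was at least 0.928 and 0.921 in limma or the methods' t-test.

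Set directly against heterozygotes of the same line, H275R homozygotes were lower without overlap in 5 of the 6 genes, all but *Tmod1*, where 2.50% of probe sets were. So were 6 of 10 genes of the band 3 and Rh complexes and the red cell surface. The same held for 8 of 17 erythroid reference genes and 4 of 12 erythroid regulators, so separate lower ranges were not confined to the 6 genes. The differences were −0.66 for *Epb42* (SE 0.24, 0.631-fold, −1.18 to −0.14), −0.50 for *Slc4a1* (SE 0.21, 0.707-fold), −0.47 for *Sptb* (SE 0.19, 0.722-fold) and −0.37 for *Ank1* (SE 0.17, 0.774-fold). *Add2* followed at −0.22 (SE 0.12) and *Tmod1* at −0.091 (SE 0.16). None of the 6 passed, nor did any probe set (0%), with adjusted p = 0.99995 for each in limma, while 4 of the 6 had an unadjusted p under 0.05, as did 1.76% of probe sets in the lower direction. These 2 comparisons and that of homozygotes with WT share arrays, so their directions are not independent of each other.

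**Figure D2:**
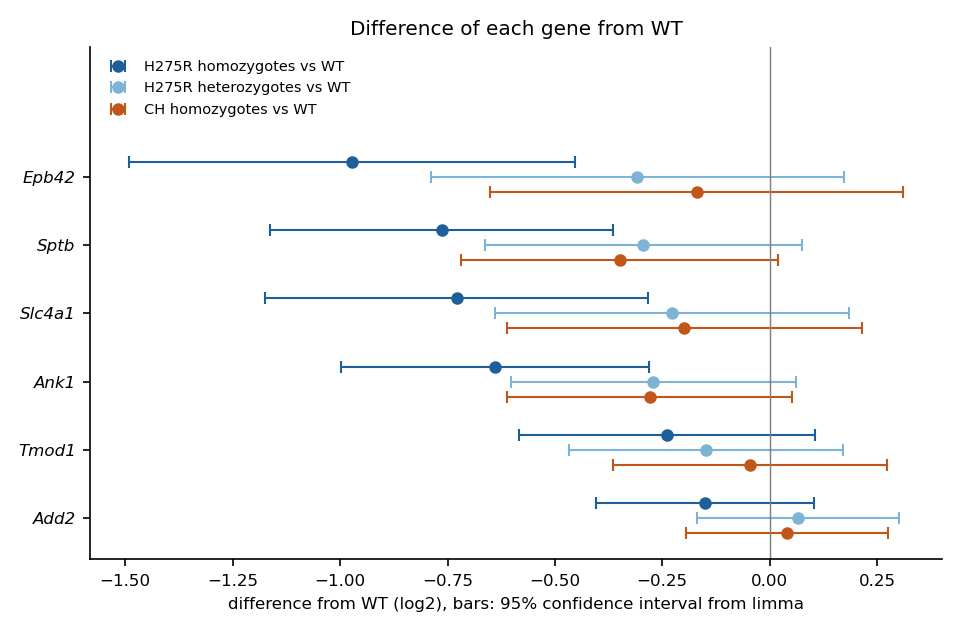
Difference from WT in log2 (x axis) for each of the 6 genes (y axis) in H275R homozygotes, H275R heterozygotes and CH homozygotes, with the 95% confidence interval from limma (bars). The intervals of H275R homozygotes lie below 0 for *Epb42* (−1.49 to −0.45), *Sptb*, *Slc4a1* and *Ank1*, and those of the other 2 groups include 0 for every gene.

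CH homozygotes, in which *Klf3* mRNA was low, were compared with WT to ask what loss of the factor does. The 6 genes gave a median difference of −0.18, against 0.0022 over all genes, and every one overlapped WT, while 2.09% of probe sets were lower without overlap. The differences were −0.35 for *Sptb* (SE 0.17, −0.72 to 0.020, adjusted p = 0.583 in limma), −0.28 for *Ank1* (SE 0.15, −0.61 to 0.053), −0.20 for *Slc4a1* (SE 0.19, −0.61 to 0.21) and −0.17 for *Epb42* (SE 0.22, −0.65 to 0.31). *Tmod1* was at −0.047 (−0.37 to 0.27) and *Add2* at 0.041 (−0.19 to 0.28). None passed, against 23 probe sets (0.0588%), the adjusted p was 0.583 to 0.955, and 0 of the 6 had an unadjusted p under 0.05, as did 8.95% of probe sets. The SD of CH homozygotes was 0.56 for *Epb42*, 0.50 for *Slc4a1* and 0.40 for *Ank1*, against 0.10, 0.17 and 0.14 in WT. Within the group, the arrays that were high in cartilage and hepatocyte markers (CH homozygotes 2 and 4) were also higher than the other 2 in all 6 genes. Their erythroid reference means (over 17 other red cell genes) were 9.69 and 9.55, against 8.91 and 9.24, and their means of 3 embryonic globins were 8.72 and 8.85, against 9.87 and 10.08. Without these 2 arrays, an alternative chosen after seeing the data, the differences from WT were −0.62 for *Epb42*, −0.60 for *Sptb*, −0.57 for *Slc4a1*, −0.58 for *Ank1*, −0.39 for *Tmod1* and −0.12 for *Add2*, with adjusted p = 0.175 to 0.688 in limma. The part of these markers in the result was not tested.

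Whether the 2 mutations differ in these genes was tested by setting CH homozygotes directly against H275R homozygotes, where line and genotype cannot be told apart. All 6 genes were higher on average in CH homozygotes, and all 6 overlapped, while 5.70% of probe sets were higher without overlap. *Epb42* differed most, by 0.80 (SE 0.24, 1.74-fold, 0.28 to 1.32, adjusted p = 0.222 in limma), followed by *Slc4a1* (0.53, SE 0.21, 0.084 to 0.98), *Sptb* (0.41, SE 0.19, 0.015 to 0.81) and *Ank1* (0.36, SE 0.17, 0.0020 to 0.72). *Tmod1* and *Add2* both differed by 0.19, with intervals that include 0. None of the 6 passed, against 64 probe sets (0.164%), while 4 had an unadjusted p under 0.05 in the higher direction, as did 6.81% of probe sets. The count depended on 1 array: without CH homozygote 1, *Epb42* (1.03, adjusted p = 0.0591 in limma) and *Slc4a1* (0.75, adjusted p = 0.0683 in limma) passed. Without CH homozygotes 2 and 4, the difference of *Epb42* was 0.35 and that of *Tmod1* −0.15.

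The 3 other comparisons of CH groups gave 0 of 6 genes past the threshold in limma. Of all probe sets, 372 (0.951%) passed for CH homozygotes against H275R heterozygotes, 2 (0.00511%) for CH heterozygotes against WT and 2 (0.00511%) for CH homozygotes against CH heterozygotes. An unadjusted p under 0.05 was found for 0, 0 and 1 of the 6 genes, the 1 being lower, where 14.6% and 5.94% of probe sets had one in the first pair of comparisons and 3.35% had one in the lower direction in the last. The member with separate ranges was *Sptb*, lower in CH homozygotes than in CH heterozygotes (9.16 ± 0.35, SD, n = 4, against 9.69 ± 0.12, SD, n = 2), as were 7.27% of probe sets. Its difference was −0.52 (SE 0.21, 0.697-fold, −0.96 to −0.083, adjusted p = 0.907 in limma).

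Other parts of the same complexes were examined from lists of partners. Of 10 measured genes (of 12 listed) of the band 3 and Rh complexes and the red cell surface, 8 had a difference below 0 in H275R homozygotes, with a median of −0.42, and 1 passed, lower. This was *Xk*, which encodes the carrier of the Kx antigen, at 7.90 in homozygotes and 8.67 in WT (−0.77, SE 0.11, adjusted p = 0.0756 in limma). It did not pass when any 1 of the 7 arrays compared was left out (adjusted p = 0.126 to 0.375). *Kel*, the Kell glycoprotein to which the Xk protein is bound, was at −1.23 (SE 0.21, adjusted p = 0.149), the erythroid surface protein *Ermap* at −0.92 (adjusted p = 0.579) and *Rhd* of the Rh complex at −0.80 (adjusted p = 0.896). The water channel *Aqp1* (0.052) and the glucose carrier *Slc2a1* (0.12), which many tissues make, were at or above WT.

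The 13 measured partners at the actin junctions (of 14 listed) had a median difference of 0.024 in H275R homozygotes, 4 were below 0 and none passed. *Dmtn*, which encodes the actin-bundling protein dematin, stood apart from the others at −0.52 (SE 0.17, adjusted p = 0.858 in limma), with no overlap with WT. The next were *Tmod3* (0.11), the tropomodulin of most other cells, the actin capping subunit *Capza2* (0.11) and the tropomyosin *Tpm3* (−0.10). Of the 13, 2 were lower than WT without overlap (*Dmtn* and *Tpm3*) and 1 was higher. Of 19 paralogs (of 20 listed) that serve other tissues (spectrins, ankyrins, *Epb41* relatives, tropomodulins, anion exchangers and transglutaminases), 7 were below 0, the median was 0.050 and none passed. Their range was narrow, from −0.15 for the transglutaminase *Tgm2* to 0.22 for *Epb41l3*, an *Epb41* relative. In CH homozygotes against WT the medians of these lists were 0.048, 0.0012 and −0.021, with 0 genes passing, and *Xk* was at −0.47 (SE 0.10, adjusted p = 0.164 in limma), without overlap.

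**Figure D3:**
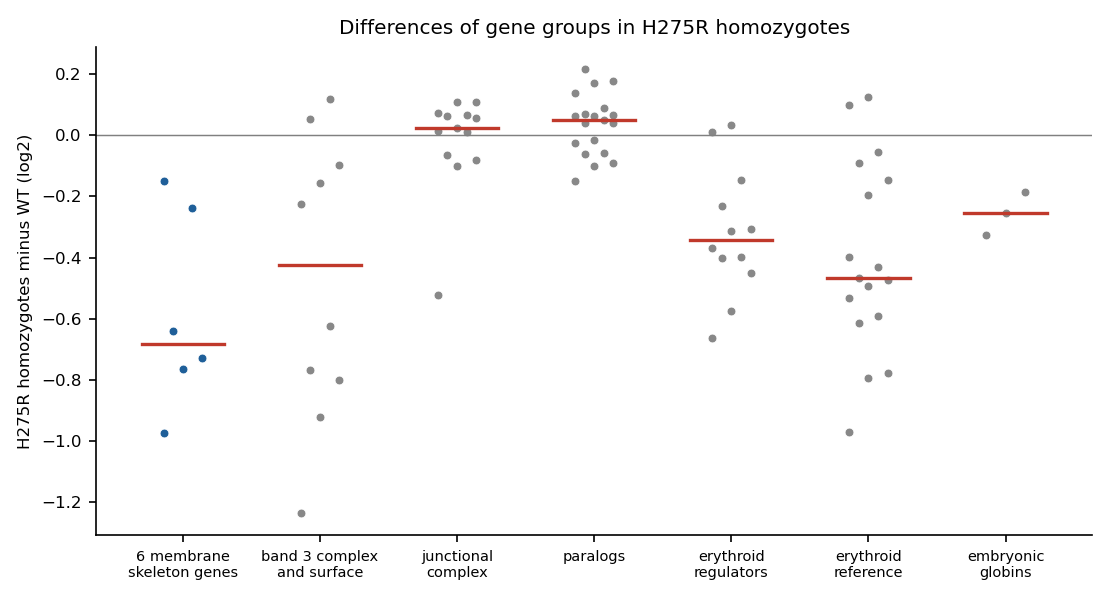
Difference between H275R homozygotes and WT in log2 (y axis) for each measured gene (points) of the 6 membrane skeleton genes and of 6 other lists (x axis), with the median of each list (red line). The 6 genes, the band 3 list and the erythroid lists have medians from −0.68 to −0.25, and the junctional partners and the paralogs lie around 0.

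Most genes of 2 lists of other erythroid genes were below 0 in H275R homozygotes, and 0 genes of either list passed in limma. A reference list of 17 measured erythroid genes (of 20 listed) that holds none of the 6 (haem synthesis, mitochondrial carriers, red cell enzymes) had 15 genes below 0 in H275R homozygotes, a median of −0.47 and 0 that passed. Its mean per array was 9.27 to 9.53 in WT, 9.24 to 9.28 in H275R heterozygotes, and 9.17, 8.97 and 8.87 in H275R homozygotes. Homozygote 1 was the highest of the 3, as it was for all 6 genes. Homozygote 3 was the lowest, as for *Epb42*, *Sptb*, *Ank1* and *Tmod1*, while homozygote 2 was the lowest for *Slc4a1* and *Add2*. Among its genes were *Trim10* (−0.97), the mitochondrial iron importer *Slc25a37* (−0.79), *Hemgn* (−0.78) and carbonic anhydrase 2, *Car2* (−0.61). Of 12 regulators, 10 were below 0, with a median of −0.34, among them *Klf1* (−0.66), *Nfe2* (−0.57), *Gfi1b* (−0.45) and *Tal1* (−0.40). The 3 embryonic globin genes had a median of −0.25, and adult globins were not analysed here.

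The 6 genes were also read relative to that reference, as the log2 value minus the reference mean of the same array. *Epb42* was at −0.60 to −0.52 on this scale in WT and at −1.31 to −0.82 in H275R homozygotes. *Sptb*, *Slc4a1* and *Ank1* were also lower without overlap, which makes 4 of the 6 genes, against 45 of all probe sets (0.115%). That share is small by construction, because subtracting a mean that is lower in homozygotes raises most other genes there. Other erythroid genes were not singled out on this scale, so whether the 4 differ from them was not tested. Before subtraction, *Kel* (−1.23), *Trim10* (−0.97), *Ermap* (−0.92), *Slc25a37* (−0.79) and *Hemgn* (−0.78) were as low as the 4 or lower, while the reference list had a median of −0.47. A gene at an equal level in both groups is higher in homozygotes on this scale, since the reference mean was 9.002 in homozygotes and 9.402 in WT, and 46.6% of probe sets were higher without overlap. *Add2* was among these (0.48 to 0.71 in homozygotes, 0.25 to 0.43 in WT). *Tmod1* overlapped. With the reference mean as a covariate in the limma fit, the differences between H275R homozygotes and WT were −0.36 for *Epb42*, −0.32 for *Sptb*, −0.20 for *Ank1* and −0.17 for *Slc4a1*, and those of *Tmod1* (0.15) and *Add2* (0.10) changed sign. The adjusted p was 0.696 to 0.868.

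Of the markers of other tissues, 0 genes of the hepatocyte, cardiac, skeletal muscle, neuronal and cartilage lists passed for H275R homozygotes against WT in limma. Of 14 hepatocyte genes, 11 were below 0 in H275R homozygotes, with a median of −0.36. Of these genes, 4 were lower without overlap with WT, as were 3.16% of all probe sets. The mean of the list per array overlapped between the groups (8.37 to 8.69 in homozygotes, 8.50 to 9.04 in WT). The means of cardiac markers were separate, at 8.89 to 8.94 against 8.69 to 8.85, and those of neuronal markers overlapped, at 9.83 to 9.99 against 9.71 to 9.97. The part of the liver, heart or brain in the values of the 6 genes was not tested. RMA values have no 0, so the absence of a marker cannot be read from them.

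**Figure D4:**
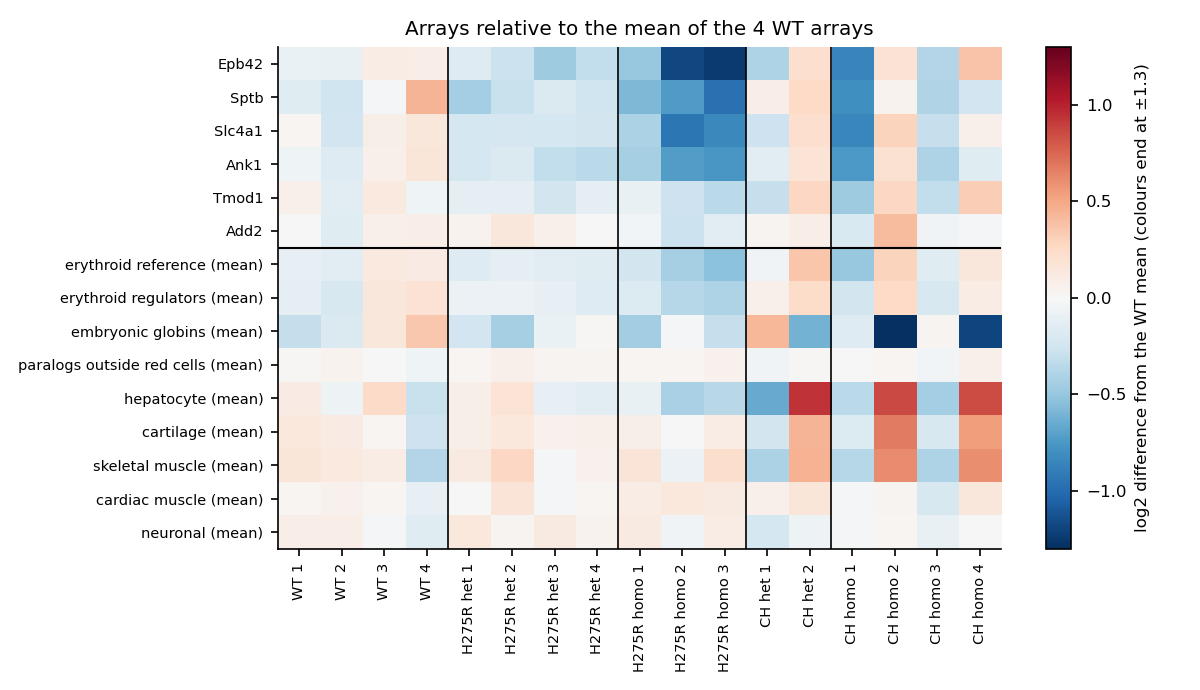
Difference of each of the 17 arrays (x axis) from the mean of the 4 WT arrays in log2 (colour, blue lower and red higher, ending at 1.3), for the 6 genes (top) and for the means of 9 other gene lists (bottom). The H275R homozygotes are blue in *Epb42*, *Sptb*, *Slc4a1* and *Ank1* and in the erythroid means, the paralog mean stays near 0, and CH homozygotes 2 and 4 and CH heterozygote 2 are red in hepatocyte, cartilage and skeletal muscle means.

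Across the 17 arrays the genes of the band 3 anchor varied most closely together. Pearson's r was 0.96 for *Slc4a1* with *Ank1* and 0.95 for *Epb42* with *Slc4a1*, and it was 0.96 and 0.92 after each group's mean had been removed. *Sptb* was closest to *Ank1* (0.93, and 0.84 with group means removed). The lowest values were those of *Sptb* with *Tmod1* (0.60) and of *Tmod1* with *Add2* (0.61). *Slc4a1* followed the erythroid reference mean at 0.95, and *Add2* did so least, at 0.75. *Tmod1* followed the hepatocyte mean (0.91) more closely than the erythroid reference mean (0.86). These are descriptions over arrays that share genotype, line and stage, and carry no test. Of all named genes, *Dmtn* had the pattern most like the mean of the 6 (r = 0.98 over 17 arrays), followed by *Fech* (0.96), which encodes the last enzyme of haem synthesis, *6030468B19Rik* (0.96), the carrier *Slc22a4* (0.95) and *Cpox* (0.95), another enzyme of haem synthesis.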

How the data were processed

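The authors labelled total RNA of whole embryos at E12.5, hybridised it to Affymetrix 2.0 ST arrays and deposited log2 values after RMA normalization, and the sources name Partek Genomic Suite for their analysis. Whether all 17 arrays were normalized together is not given in the sources used here. Values were used as deposited, with no filter, and 0 columns were without a sample. Of 39137 probe sets, 23521 have 1 gene symbol in the platform annotation, 1820 several and 13796 none listed, and 23328 were matched to mouse RefSeq genes (GRCm38.p6). A gene with more than 1 probe set is represented by that of highest mean. Tests were two-sided and used limma 3.58.1 under R 4.3.3, and the script was first tested on simulated data. The methods name a false discovery rate of 0.1 and no test for arrays. The 6 genes and the lists were chosen with earlier results of these data known. From each other list the genes that passed and up to 4 with the largest difference in H275R homozygotes were named, and others named beside them were chosen after their values were seen. Alternatives were the arrays fitted, the replicate number as a block, array weights, trended and robust variance priors, the methods' t-test, filters, centring and quantile normalization, other probe sets of a gene, a stricter threshold, an erythroid covariate and each array left out. The number of arrays limits the precision.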

Additional observations from a re-analysis of the deposited data

Results flagged for a closer look

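Of the 18 groups of 4 arrays examined for an array far from the rest, 1 stood out, where chance gives about 1 in 20. *Tmod1* in H275R heterozygote 3 (8.15) lay below the other 3 heterozygotes (8.26 to 8.27), and this gap was 0.896 of the range of the group, above Dixon's critical value. *Epb42* was also lowest in this array (8.38), but its gap was not large enough to stand out.

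For *Sptb*, all 4 H275R heterozygotes lay below the WT mean of 9.51 (9.07 to 9.32) and both CH heterozygotes above it (9.60 and 9.77). WT 4 (9.96) raised that mean, and WT 1, 2 and 3 (9.36, 9.25 and 9.49) also lay below it. Both heterozygous groups overlapped WT, and the share of all probe sets with such a pattern was not computed. The means of the 2 heterozygous groups differed by 0.466. This difference was not tested, and line and allele cannot be told apart in it.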

How the results depend on the processing

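The count of the 6 genes that passed was 0 under all alternatives of all 8 comparisons but 1: it was 2 for CH homozygotes against H275R homozygotes without CH homozygote 1 (range 0 to 2 with 1 array left out). Of the differences of single genes that were followed, 656 kept their direction and their side of the threshold, 2 passed (*Epb42* and *Slc4a1* in that setting) and 15 changed sign. With the erythroid reference mean as covariate the sign turned for H275R homozygotes against WT in *Tmod1* (0.15) and *Add2* (0.10), for H275R homozygotes against heterozygotes in *Tmod1* (0.15), for CH homozygotes against WT in *Tmod1* (0.0071), and for CH against H275R homozygotes in *Ank1* (−0.020), *Tmod1* (−0.14) and *Add2* (−0.027). Without CH homozygotes 2 and 4 it turned for *Add2* against WT (−0.12) and for *Tmod1* against H275R homozygotes (−0.15). With 1 array left out, CH homozygotes against WT ranged from −0.35 to 0.059 for *Epb42*, −0.36 to 0.018 for *Slc4a1*, −0.17 to 0.090 for *Tmod1* and −0.083 to 0.12 for *Add2*. The causes were not tested.

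For H275R homozygotes against WT, the adjusted p over all settings was at least 0.429 for *Epb42*, 0.412 for *Sptb*, 0.552 for *Slc4a1* and 0.453 for *Ank1*. The labels do not say that a replicate number marks a shared litter, and the arrays with the same number were not all correlated in their deviations from the group means. Of 29 such correlations (−0.21 to 0.60) 9 were over 0.1, and of 85 between different numbers 26 were. Both counts include pairs with a CH array. Among WT and the H275R genotypes, same-numbered pairs were positive except H275R homozygote 2 with WT 2 (−0.036). Differently numbered pairs of these genotypes ranged from −0.40 to 0.39. Whether the numbers mark a shared litter was not tested. Same-numbered arrays were at 0.081 to 0.44 between H275R homozygotes and heterozygotes and at −0.036 to 0.23 between H275R homozygotes and WT. They were at 0.015 to 0.34 between H275R heterozygotes and WT, and at 0.37 and 0.60 between CH homozygotes and heterozygotes. Differently numbered CH pairs reached 0.64 (homozygote 4 with heterozygote 2) and 0.44 (homozygote 3 with heterozygote 1). With 2 CH heterozygotes each correlation recurs with the opposite sign, so the CH values cannot show a pairing by number. H275R homozygote 2 correlated more with heterozygote 1 (0.14) than with heterozygote 2 (0.081). With the replicate number as a block, *Epb42* was at −0.90 and *Sptb* at −0.70, and no gene changed its call. The background of all probe sets moved more than the 6 genes: the 5 that passed for H275R homozygotes against WT became 0 to 2 with 1 array left out and 0 under the methods' t-test, and the counts of CH homozygotes ranged from 1 to 129 against WT (23), 0 to 547 against H275R homozygotes (64) and 21 to 1286 against H275R heterozygotes (372). For H275R heterozygotes against WT and H275R homozygotes against heterozygotes (both 0) they ranged from 0 to 2 and from 0 to 1, and for CH heterozygotes against WT and CH homozygotes against CH heterozygotes (both 2) from 0 to 36 and from 0 to 33.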

Other observations

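Each gene had its own nearest neighbours among all named genes (Pearson's r over 17 arrays, a description with no test). *Epb42* was most like *Trim10* (0.96), *Slc22a4* (0.95) and *Ube2l6* (0.94). *Sptb* was most like *Slc25a37* (0.96), which brings iron into mitochondria, then *Kel* (0.92) and *1700109G14Rik* (0.92). *Slc4a1* and *Ank1* were both closest to *Dmtn* (0.97 and 0.98). For *Tmod1* the closest were *Tspo2* (0.94), *Slc14a1* (0.94), a urea transporter of red cells, and *Slc16a10* (0.94). *Add2* had the weakest likeness to any gene, with *Ampd3* (0.88), the AMP deaminase of red cells, ahead of *Was* (0.84) and *Pklr* (0.84), the red cell pyruvate kinase.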
